A study of Rattus norvegicus with 12 samples.

Results

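The insulin-like growth factor family was followed on 12 Affymetrix rat arrays, which read RNA by sets of short probes (probe sets). Members were all probe sets that the annotation of the array gives the symbol of an insulin-like growth factor, a receptor or a binding protein. This gave 24 of the 8740 probe sets tested, and they belong to 9 of the 10 genes asked for: Igf1, Igf2, Igf1r, Igf2r, Igfbp1, Igfbp2, Igfbp3, Igfbp5 and Igfbp6. No probe set is named Igfbp4. The family was chosen by its log2 differences between a mixture and the control of the same experiment, so these differences are given as a description, with no test of them read as support.

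Mixed CNS glia from neonatal rat brain, kept for 6 to 8 days in a defined medium (with fetal bovine serum at 2%), received cytokines for 6 hours in 3 separate experiments of 4 cultures each. The Th1 group received interferon-g, IL-2, g-CSF and TNF-a. The M/M (monocyte/macrophage) group received IL1a, IL1b, IL-12p40 and TNF-a. The Th2 group received porcine TGF-b1, G-CSF, IL-10 and IL-5. Each cytokine was used at 10 ng/ml and was recombinant rat protein apart from the TGF-b1, and the methods add IL-6 to the M/M and IL-4 to the Th2 mixture, which the sample labels do not list. Control cultures received medium alone, and each array holds 1 culture. No strain or sex of the animals is given in the labels, and each group has 3 arrays, a number that limits the precision.

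Insulin-like growth factors are small secreted proteins related to insulin that act through a receptor tyrosine kinase to promote growth, survival and differentiation, and in the brain they are known for their part in oligodendrocyte development and myelination. Igf1 and Igf2 are the ligands. Igf1r transmits the signal of both, whereas Igf2r mainly removes Igf2 from the surroundings of the cell. The binding proteins hold the ligands outside the cell, prolong their life and either block or favour their contact with Igf1r.

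The stretch of 250 bases before the annotated start of transcription is shown for 3 members, from RefSeq on the GRCr8 build, read in the direction of the gene. Igf1 is shown because it was below control on all treated arrays at its brightest probe set, Igf2 because its probe sets followed different patterns and it has 2 annotated starts, and Igfbp2 because it had the brightest probe set of the family. Capitals mark the GC box, searched as GGGCGG on both strands. The starts of Igf2 are numbered by position along the chromosome, so on the minus strand the second lies upstream of the first.
Igf1, chr7:24172282-24172531, plus strand: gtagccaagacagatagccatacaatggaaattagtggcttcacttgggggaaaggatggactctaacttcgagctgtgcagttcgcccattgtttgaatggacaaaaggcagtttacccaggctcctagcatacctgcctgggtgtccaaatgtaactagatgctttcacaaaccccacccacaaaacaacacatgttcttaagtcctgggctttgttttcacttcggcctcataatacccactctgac
Igf2, the first start, chr1:207250476-207250725, minus strand: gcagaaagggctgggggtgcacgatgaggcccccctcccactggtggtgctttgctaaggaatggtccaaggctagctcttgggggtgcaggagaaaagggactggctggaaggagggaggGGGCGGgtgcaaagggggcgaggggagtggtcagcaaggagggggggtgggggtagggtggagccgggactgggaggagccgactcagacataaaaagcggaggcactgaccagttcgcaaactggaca
Igf2, the second start, chr1:207253981-207254230, minus strand: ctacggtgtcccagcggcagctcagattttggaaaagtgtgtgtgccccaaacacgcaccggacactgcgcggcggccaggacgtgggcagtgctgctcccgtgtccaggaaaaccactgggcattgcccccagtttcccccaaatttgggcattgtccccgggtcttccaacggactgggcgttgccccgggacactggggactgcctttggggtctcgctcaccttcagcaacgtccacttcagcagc
Igfbp2, chr9:81864561-81864810, plus strand: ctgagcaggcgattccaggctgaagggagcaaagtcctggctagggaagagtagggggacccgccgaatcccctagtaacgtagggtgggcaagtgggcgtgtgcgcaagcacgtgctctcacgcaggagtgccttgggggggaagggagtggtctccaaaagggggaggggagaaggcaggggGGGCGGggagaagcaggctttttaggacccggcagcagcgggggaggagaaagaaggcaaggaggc
The Igf1 stretch holds no GC box and has a GC content of 46.8%, against a median of 51.2% over all 33469 stretches of this length. The Igfbp2 stretch has a GC content of 64.0%, and those of Igf2 have 63.6% and 62.4%.

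All 10 genes, Igfbp4 included, have such a stretch, which makes 11 with both starts of Igf2. The GC box is in 4 of these 11, those of Igf1r, Igf2r, Igfbp2 and the first start of Igf2, and in 30.5% of all. A short form of the NF-kappaB motif, GGG and CC parted by 5 bases of any kind, is in 9 of the 11, all but those of Igf1 and Igfbp5, and in 42.3% of all. In Igf1r and Igf2r it overlaps the GC box. The fixed letters of this motif are all G or C, and Igf1 (46.8%) and Igfbp5 (51.6%) have the lowest GC content of the 11. A comparison with stretches of like GC content was not made. The C/EBP-like letters TTGCNNAA are in 1, at the second start of Igf2 (9.22% of all), and the gamma-activated site TTCNNNGAA is in none (7.67% of all). TATAAA is in the Igfbp4 stretch alone (12.9% of all) and CCAAT in that of Igfbp1 alone (34% of all). These are matches of letters on either strand, and no binding was measured. Along the genome Igfbp1 and Igfbp3 are neighbours on chromosome 14, and Igfbp2 and Igfbp5 on chromosome 9, with 0 protein-coding genes between the members of either pair.

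The arrays differ in overall brightness, which touches every value that follows. The median signal of an array was 56.1 to 60.98 in experiments 1 and 2, with the exception of the control of experiment 2 at 38.4, and 24.5 to 42.2 in experiment 3. Over all probe sets the median log2 difference against control was 0.14 in Th1, 0.33 in M/M and 0.19 in Th2 cultures. Values are given as deposited, and for some members also after each array was centred on its median, which changed the sign of 17 of the 72 mean differences of the family. The summed signal of 7 oligodendrocyte markers was 10215 to 11655 in experiment 1, 15102 to 18844 in experiment 2 and 4490 to 7846 in experiment 3, and Mbp, the myelin basic protein gene, was at 1831 or above on all 12 arrays. That of 7 astrocyte markers, which do not include Gfap, was 4525 to 8681 over all arrays, and that of 4 endothelial markers was 36 to 235. In such bulk samples fewer cells of a type and less RNA per cell cannot be told apart.

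Igf1, the ligand known to drive oligodendrocyte maturation, was lower with each mixture at its brightest probe set, M15481_g_at. Its signal was 608, 625 and 294 in Th1, 730, 669 and 330 in M/M and 822, 806 and 324 in Th2 cultures in experiments 1, 2 and 3, against 1285, 969 and 357 in control cultures. All 3 treated arrays lay below the control of their own experiment, but the ranges of the groups overlap because all 4 arrays of experiment 3 were low. The mean log2 difference was -0.66 ± 0.40 in Th1, -0.49 ± 0.35 in M/M and -0.35 ± 0.26 in Th2 cultures (SD, n = 3 experiments). Of all probe sets, 5.72% were lower in 3 of 3 experiments in Th1, 3.66% in M/M and 6.46% in Th2 cultures. Only 0.561% were lower on all 9 treated arrays, where the 3 treated arrays of an experiment share 1 control. With centring M15481_g_at stayed below control on all 9, which 3.17% of probe sets did, and its mean log2 differences were -0.82, -0.92 and -0.56 in Th1, M/M and Th2 cultures.

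As deposited the difference was largest in experiment 1, at -1.08 in Th1, -0.82 in M/M and -0.64 in Th2 cultures on the log2 scale. In experiment 3 it was -0.28, -0.12 and -0.14 for the same mixtures, and in each experiment the Th1 array was the lowest of the mixtures. With centring it was largest in experiment 2 (-1.30, -1.13 and -0.81), and in experiment 3 the Th1 array lay closest to control (-0.15, -0.76 and -0.25). A direct comparison of Th1 with Th2 cultures by limma gave a log2 difference of -0.31 (SE 0.19, adjusted p = 1), so that these mixtures were not distinguished at this probe set.

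The other Igf1 probe sets did not all follow M15481_g_at. X06107_i_at had 151, 171 and 32.3 in Th1, 183, 234 and 23.4 in M/M and 195, 228 and 22.6 in Th2 cultures, against 316, 209 and 36.4 in control cultures. It was below its control on 7 of 9 treated arrays and, with centring, on 9 of 9. X06107_r_at, built on the same transcript entry, had 587, 457 and 71.4 in Th1, 565, 643 and 52.3 in M/M and 429, 553 and 38.6 in Th2 cultures, against 659, 592 and 37.1 in control cultures. It was below control on 5 of 9 treated arrays, and its mean log2 differences were 0.14 ± 0.71 in Th1, 0.13 ± 0.36 in M/M and -0.22 ± 0.35 in Th2 cultures (SD, n = 3). With centring it was below control on 8 of 9.

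M15481_at, a further probe set for the entry of the brightest one, had 133, 120.1 and 61.1 in Th1, 131, 149 and 119.8 in M/M and 115, 142 and 42.6 in Th2 cultures, against 103, 163 and 66.9 in control cultures. It lay above control on 4 of the 9 treated arrays, and 2 of these were in M/M cultures. D00698_s_at had 52.4, 34.7 and 29.0 in Th1, 103, 58.2 and 39.1 in M/M and 102, 37.4 and 22.5 in Th2 cultures, against 123, 13.6 and 26.5 in control cultures. Its control of experiment 2 was the lowest of the 12 arrays, and all 3 mixtures were above it there and below control in experiment 1.

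Across the 12 arrays, after centring and with the mean of each experiment removed, M15481_g_at correlated with X06107_i_at at r = 0.86, with X06107_r_at at 0.54, with M15481_at at 0.27 and with D00698_s_at at -0.10. These are descriptions over arrays that share 3 experiments. Among the 5 probe sets the median log2 difference was -0.07 in Th1, 0.13 in M/M and -0.23 in Th2 cultures, and 3, 2 and 4 of the 5 means were below 0. As deposited, 2 of the 5 probe sets were thus below control on most treated arrays, and the other 3 were divided. A pair of probe sets for M81183, an entry the study lists as IGF-1 and as lower with Th1 cytokines, carries no symbol in the annotation and was outside the family. The brighter of them had 45.0, 103 and 85.7 in Th1, 164, 106 and 79.2 in M/M and 87.9, 127 and 109 in Th2 cultures, against 176, 42.2 and 152 in control cultures, which is below control in experiments 1 and 3 and above it in experiment 2. Its mean log2 difference in Th1 cultures was -0.50 ± 1.65, and that of the other was 0.67 ± 1.40 (SD, n = 3 experiments).

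**Figure D1:**
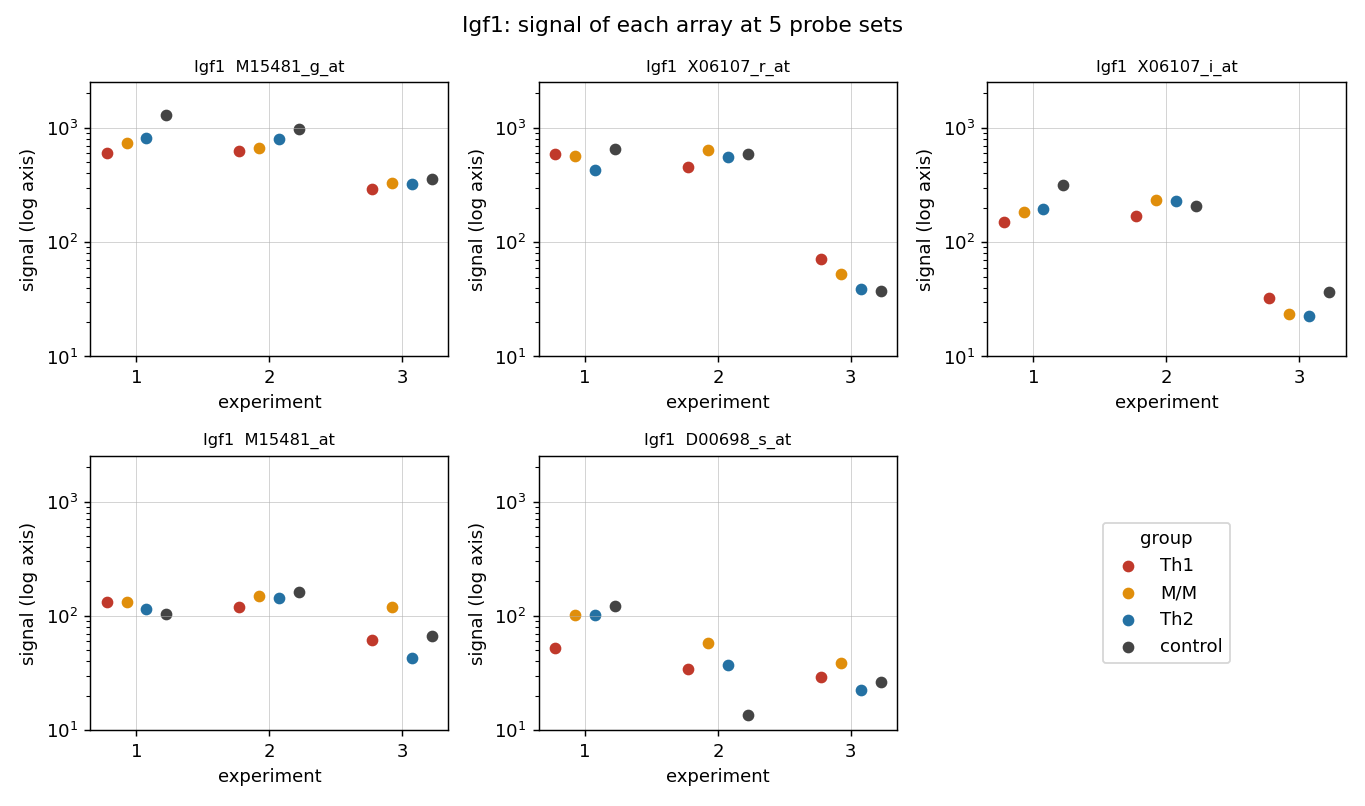
Signal (log axis) of each of the 12 arrays at the 5 Igf1 probe sets, by experiment, with a colour each for Th1, M/M, Th2 and control arrays. At M15481_g_at the control is the highest of its experiment in all 3 experiments, whereas X06107_r_at is dominated by the step between experiments 1 and 2 (429 to 659) and experiment 3 (37.1 to 71.4).

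Igf2, the ligand of fetal growth, which meninges and choroid plexus are known to make in the adult brain, had its brightest probe set in M17960_g_at. It had 207, 218 and 48.2 in Th1, 219, 228 and 84.2 in M/M and 217, 211 and 68.6 in Th2 cultures, against 221, 247 and 56.0 in control cultures. As deposited all 6 treated arrays of experiments 1 and 2 were below control, by at most 0.23 on the log2 scale, and with centring those of experiment 2 were below it by more (-0.85 in Th1, -0.71 in M/M and -0.77 in Th2 cultures). The mean log2 difference was -0.16 ± 0.06 in Th1, 0.15 ± 0.38 in M/M and 0.01 ± 0.26 in Th2 cultures (SD, n = 3) as deposited, and with centring that of M/M was -0.27 ± 0.37, with 3 of 3 arrays below control. M17960_at had 57.7, 70.9 and 18.3 in Th1, 56.4, 71.1 and 45.5 in M/M and 52.7, 69.1 and 28.8 in Th2 cultures, against 57.4, 106 and 32.0 in control cultures, and it followed M17960_g_at within experiments (r = 0.88 over 12 arrays).

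X17012mRNA_s_at, the third Igf2 probe set of usable brightness, went its own way. It had 107, 47.1 and 35.1 in Th1, 111, 39.4 and 89.2 in M/M and 103, 42.4 and 83.5 in Th2 cultures, against 141, 26.1 and 50.6 in control cultures. All mixtures were below control in experiment 1 and above it in experiment 2, and its correlation with M17960_g_at within experiments was 0.10. The remaining 3 Igf2 probe sets, X16703_r_at, X16703_i_at and E00988mRNA_s_at, were dim, which here means a mean log2 signal below the 25th percentile of all probe sets (a signal of about 10.1), and had 0.4 to 18.4 on all arrays. X16703_r_at was above its control on all 9 treated arrays, as 5.31% of probe sets were, but its control of experiment 3 was 0.7 and with centring 1 Th2 array fell below control.

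Igf1r, the signalling receptor of both ligands, had 2 probe sets. M27293_s_at had 55.9, 62.4 and 29.5 in Th1, 62.6, 64.6 and 66.5 in M/M and 52.2, 69.3 and 37.7 in Th2 cultures, against 54.6, 39.6 and 36.4 in control cultures. The 3 M/M arrays lay above all 3 control arrays, and at 7.99% of all probe sets M/M and control signals did not overlap, either direction. The mean log2 difference of M27293_s_at in M/M cultures was 0.59 ± 0.35 (SD, n = 3) as deposited and 0.16 ± 0.05 with centring. L29232_at had 67.1, 50.1 and 37.0 in Th1, 44.5, 44.6 and 120.7 in M/M and 29.4, 37.7 and 74.2 in Th2 cultures, against 42.9, 66.6 and 37.0 in control cultures. Its values in M/M and Th2 cultures were high in experiment 3 only, and it correlated with M27293_s_at within experiments at 0.14.

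Igf2r, the mannose 6-phosphate receptor that carries Igf2 to lysosomes, had 1 probe set, U59809_s_at. It had 104, 93.3 and 60.6 in Th1, 91.3, 92.1 and 83.2 in M/M and 125, 82.7 and 82.2 in Th2 cultures, against 269.5, 43.8 and 68.6 in control cultures. The treated arrays lay between 60.6 and 125, inside the range of the controls, and all differences turned with the control of the experiment: below it in experiment 1, above it in experiment 2.

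Igfbp2, the binding protein that astrocytes are known to secrete into brain and cerebrospinal fluid, had the brightest probe set of the family, J04486_at. It had 1344, 1146 and 1001.5 in Th1, 1317, 1069.8 and 1746 in M/M and 1301, 946 and 1108 in Th2 cultures, against 1712, 920.3 and 1474 in control cultures. As deposited the treated arrays were below control in experiment 1 and above it in experiment 2, where the control array was dimmer as a whole, and in experiment 3 M/M alone was above. With centring all 9 treated arrays were below control, and the mean log2 difference was -0.36 ± 0.06 in Th1, -0.40 ± 0.02 in M/M and -0.47 ± 0.08 in Th2 cultures (SD, n = 3), against -0.20 ± 0.46, 0.03 ± 0.35 and -0.26 ± 0.26 as deposited. Being below control on all 9 treated arrays after centring held for 4 of the 24 family probe sets (M15481_g_at, X06107_i_at, J04486_at and the dim Igfbp1 probe set) and for 3.17% of all.

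A09811cds_s_at, also for Igfbp2, had 924, 893 and 781 in Th1, 948, 790.3 and 1015 in M/M and 990.2, 547 and 629.9 in Th2 cultures, against 1722, 978 and 815 in control cultures. It was below control on 8 of 9 treated arrays as deposited, the exception being M/M in experiment 3, while 2.46% of all probe sets were below on at least 8. Its mean log2 difference was -0.36 ± 0.46 in Th1, -0.28 ± 0.59 in M/M and -0.67 ± 0.26 in Th2 cultures (SD, n = 3). M91595exon_s_at had 493, 513 and 784 in Th1, 590.03, 423 and 663 in M/M and 595, 441 and 423 in Th2 cultures, against 1068, 561 and 385 in control cultures, and it was below control in experiments 1 and 2 and above it in experiment 3. Within experiments J04486_at correlated with A09811cds_s_at at 0.84 and with M91595exon_s_at at 0.43 over 12 arrays.

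**Figure D2:**
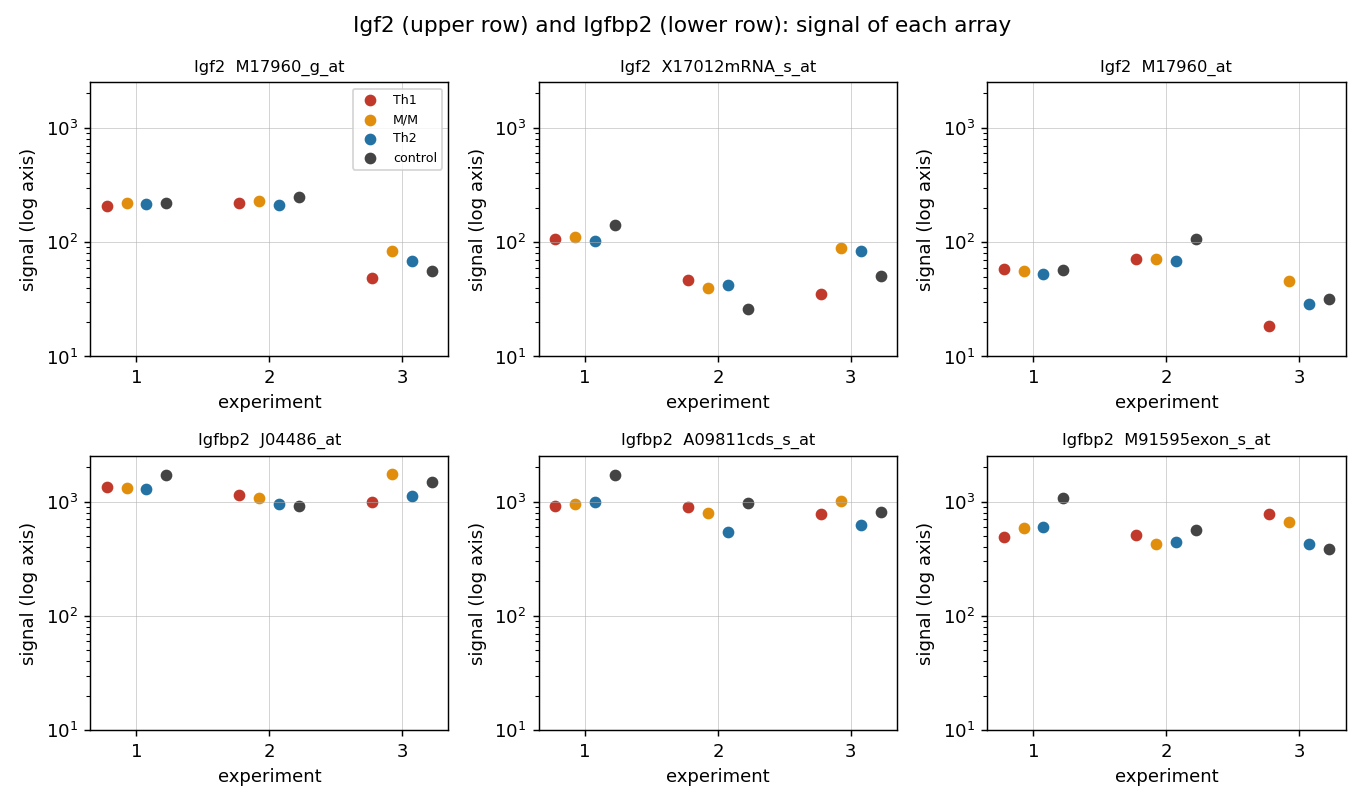
Signal (log axis) of each of the 12 arrays at 3 Igf2 probe sets in the upper row and 3 Igfbp2 probe sets in the lower row, by experiment, with a colour each for Th1, M/M, Th2 and control arrays. At M17960_g_at the arrays of experiment 3 (48.2 to 84.2) lie below those of experiments 1 and 2 (207 to 247), whereas at Igfbp2 J04486_at the experiments overlap (920.3 to 1746 over all arrays).

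Igfbp3, the main carrier of Igf1 in blood, was measured by 2 probe sets that behaved differently between experiments. M31837_at had 185, 293 and 244 in Th1, 228, 343 and 344 in M/M and 394, 339 and 226 in Th2 cultures, against 169.6, 265 and 490.4 in control cultures. As deposited all mixtures were above control in experiments 1 and 2 and below it in experiment 3, and with centring they were below it in experiment 2 as well (-0.53 in Th1, -0.22 in M/M and -0.19 in Th2 cultures). For Th2 cytokines the log2 differences ran from 1.22 in experiment 1 to -1.12 in experiment 3. The second probe set, rc_AI009405_s_at, had 128, 149 and 35.4 in Th1, 99.4, 157 and 64.0 in M/M and 194, 190.4 and 40.3 in Th2 cultures, against 105, 177 and 43.0 in control cultures. Its mean log2 difference was -0.08 ± 0.32 in Th1, 0.11 ± 0.41 in M/M and 0.30 ± 0.51 in Th2 cultures (SD, n = 3), none of them larger than its SD. With centring the means were -0.24, -0.32 and 0.08 for the same mixtures, and all 3 M/M arrays were below control.

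Igfbp5, which binds to extracellular matrix, had 1 probe set that was not dim, M62781_at. It had 28.5, 54.2 and 2.9 in Th1, 29.3, 45.8 and 17.8 in M/M and 33.3, 56.0 and 16.2 in Th2 cultures, against 37.5, 9.63 and 4.7 in control cultures. In experiment 1 all mixtures were below control, and in experiment 2 all were above it, by 2.25 to 2.54 on the log2 scale. The mean log2 difference was 0.47 ± 1.76 in Th1, 1.27 ± 1.42 in M/M and 1.39 ± 1.40 in Th2 cultures (SD, n = 3). The other Igfbp5 probe sets, rc_AI029920_s_at and rc_AI070577_at, were dim, with 0.9 to 16.8 on all arrays, and both were above control in M/M cultures in 3 of 3 experiments, as were 32% of all probe sets. With M/M cytokines the signals were 6.46, 6.51 and 16.8 at rc_AI029920_s_at, against 4.97, 1 and 8.3 in control cultures.

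Igfbp6, which prefers Igf2 as its ligand, had 1 probe set, M69055_at. It had 83.0, 157 and 45.7 in Th1, 135, 187 and 100.2 in M/M and 150.5, 112 and 85.1 in Th2 cultures, against 117, 49.2 and 67.4 in control cultures. It was above control in 3 of 3 experiments in M/M and in Th2 cultures, where 32% and 25% of all probe sets did the same, and in 1 of 3 in Th1 cultures. The mean log2 difference was 0.90 ± 0.91 in M/M and 0.63 ± 0.48 in Th2 cultures (SD, n = 3), and with centring it was 0.47 and 0.41, with 2 of 3 M/M and 3 of 3 Th2 arrays above control. Igfbp1, a binding protein known from liver and regulated by insulin there, was dim at its single probe set M58634_at, with 1.42 to 5.7 on all arrays.

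**Figure D3:**
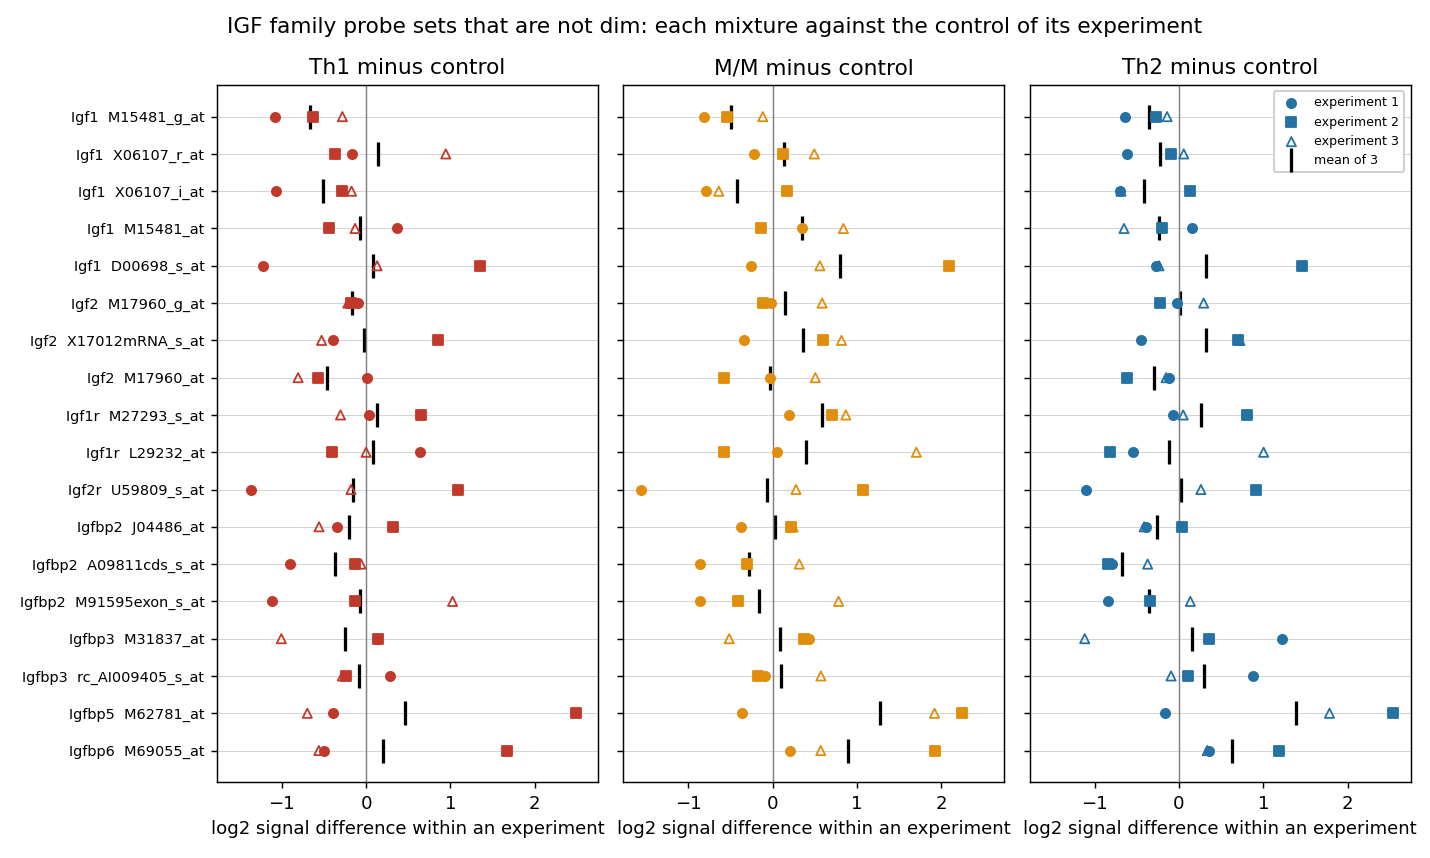
Log2 signal difference, as deposited, between each mixture and the control of the same experiment for the 18 probe sets that were not dim, with 1 symbol per experiment and a black bar at the mean of 3. M15481_g_at lies left of 0 in every panel, and the largest differences, at Igfbp5 M62781_at, come from experiment 2, where the control had 9.63.

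Over the 24 probe sets the median log2 difference as deposited was -0.08 in Th1, 0.20 in M/M and 0.02 in Th2 cultures, while over all 8740 it was 0.14, 0.33 and 0.19. With each array centred the family medians were -0.24, -0.23 and -0.19, and those of all probe sets were -0.02, -0.10 and -0.03. As deposited 9 of the 24 had a mean above control in Th1, 17 in M/M and 13 in Th2 cultures, and over all probe sets these shares were 65.4%, 78.1% and 69.3%. The sign of the family median in M/M and Th2 cultures thus depends on whether the arrays are centred.

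Limma, fitted on all 8740 probe sets with experiment as a block, called 0 of the 24 against control at an adjusted p under 0.05 with any mixture, while it called 0% of all probe sets in Th1, 0.263% in M/M and 0.0114% in Th2 cultures. At an unadjusted p under 0.05 it marked 2, 3 and 3 of the 24, against 5.56%, 15.9% and 6.75% of all. The screening criteria of the methods were a change of over 2-fold with a p under 0.2 by analysis of variance, for each mixture against control. Here they were applied to the mean log2 difference, with 1 analysis of variance across the 4 groups on log2 signals. In this form 0 of the 24 passed in Th1, 2 in M/M and 1 in Th2 cultures, and 2.21%, 3.33% and 2.33% of all probe sets passed. Those that passed were the dim Igfbp5 probe sets rc_AI029920_s_at and rc_AI070577_at in M/M, and rc_AI029920_s_at in Th2 cultures, all higher. Among entries of the family the study lists AI070577 as higher with Th1 and M17960 as lower with Th2 cytokines, and the form used here gave neither. The mean log2 difference of rc_AI070577_at in Th1 cultures was 0.73 ± 1.10 (SD, n = 3 experiments). In Th2 cultures that of M17960_at was -0.30 and that of M17960_g_at 0.01. The signals of 3 of the 24 in M/M cultures did not overlap those of control cultures (M27293_s_at and the dim X16703_r_at and rc_AI070577_at), as was so for 7.99% of all, and in Th1 and Th2 cultures the count was 0, beside 2.27% and 3.38% of all. Between the mixtures 0 of the 24 were called in any of 3 comparisons (0% of all in each), and at an unadjusted p under 0.05 it was 1 of the 24 for Th1 against M/M, 2 for Th1 against Th2 and 1 for M/M against Th2 (2.89%, 1.85% and 3.92% of all).

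The 3 experiments differed over the whole array, the family included, a measure that the choice of members did not use. The counts below are set beside the shares of all probe sets and are not read as particular to the family. The limma F test across experiments called 10 of the 24 probe sets, and it called 59.3% of all. Each of these 10 was lower in experiment 3 than the mean of experiments 1 and 2, as were 85.2% of all probe sets called, and the median log2 step to experiment 3 was -0.59 over the family and -0.71 over all probe sets. With each array centred the test called 14 of the 24 (54.2% of all), of which 5 were lower and 9 higher in experiment 3, and 6 were called both ways (35.3% of all). These 6 were Igf1 X06107_r_at, X06107_i_at and D00698_s_at, Igf2 M17960_g_at and X17012mRNA_s_at, and Igfbp3 rc_AI009405_s_at. A call both ways was not always a like step to experiment 3. At X17012mRNA_s_at that log2 step was -0.13 as deposited and 0.76 with centring, and at D00698_s_at it was -0.90 and -0.015. Mean log2 signals of experiments 1 and 2 were 6.84 and 5.24 at X17012mRNA_s_at and 6.50 and 4.99 at D00698_s_at, as deposited.

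Folds are given for experiment 3 against the mean of experiments 1 and 2. The adjusted p values here and in the next paragraph are those of the F test of any difference among the 3 experiments. No step between particular experiments was tested by itself. The largest step was at Igf1 X06107_r_at, with 37.1 to 71.4 in experiment 3 and 429 to 659 in experiments 1 and 2, which is 11.5-fold lower (limma F test, adjusted p = 2.88e-07). With centring it was 6.23-fold lower (adjusted p = 3.71e-05). X06107_i_at was 7.33-fold lower (adjusted p = 2.06e-06), with a range of 22.6 to 36.4 in experiment 3. M15481_g_at was only 2.43-fold lower (adjusted p = 3.57e-05) and with centring 1.31-fold (adjusted p = 0.101), so the Igf1 probe sets also differed in how far experiment 3 fell. Igf2 M17960_g_at was 3.51-fold lower in experiment 3 (adjusted p = 1.34e-05) and 1.90-fold with centring (adjusted p = 0.00121). Igfbp3 rc_AI009405_s_at was 3.28-fold lower (adjusted p = 0.000126) and 1.77-fold with centring (adjusted p = 0.00728).

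Other members ran the opposite way once arrays were centred. Igfbp2 J04486_at, which did not pass as deposited (adjusted p = 0.0779), was higher in experiment 3 by 1.01 on the log2 scale (adjusted p = 2.36e-05), and Igfbp3 M31837_at was higher by 1.11 (adjusted p = 0.00678). The Igfbp3 probe sets thus lay on opposite sides, and over all 12 arrays their log2 signals correlated at 0.03, whereas within experiments they correlated at 0.65. Igf2 X17012mRNA_s_at was lowest in experiment 2, with 26.1 to 47.1, against 103 to 141 in experiment 1 (adjusted p = 0.00277). The summed signal of 8 fibroblast markers was lowest there as well, with 1017 to 2181 in experiment 2, 5030 to 6027 in experiment 1 and 2829 to 5796 in experiment 3. By contrast, Igf2 M17960_g_at and M17960_at had their highest mean signals in experiment 2. These were 216, 226 and 64.25 at M17960_g_at and 56.1, 79.2 and 31.15 at M17960_at in experiments 1, 2 and 3. A part of fibroblasts in the Igf2 signal was not tested. The values of experiment 3 were deposited with 1 decimal and those of experiments 1 and 2 with 2, so the cultures, the handling of arrays and their processing cannot be told apart. With experiment 3 left out the test called 1 of the 24 and 5.86% of all.

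**Figure D4:**
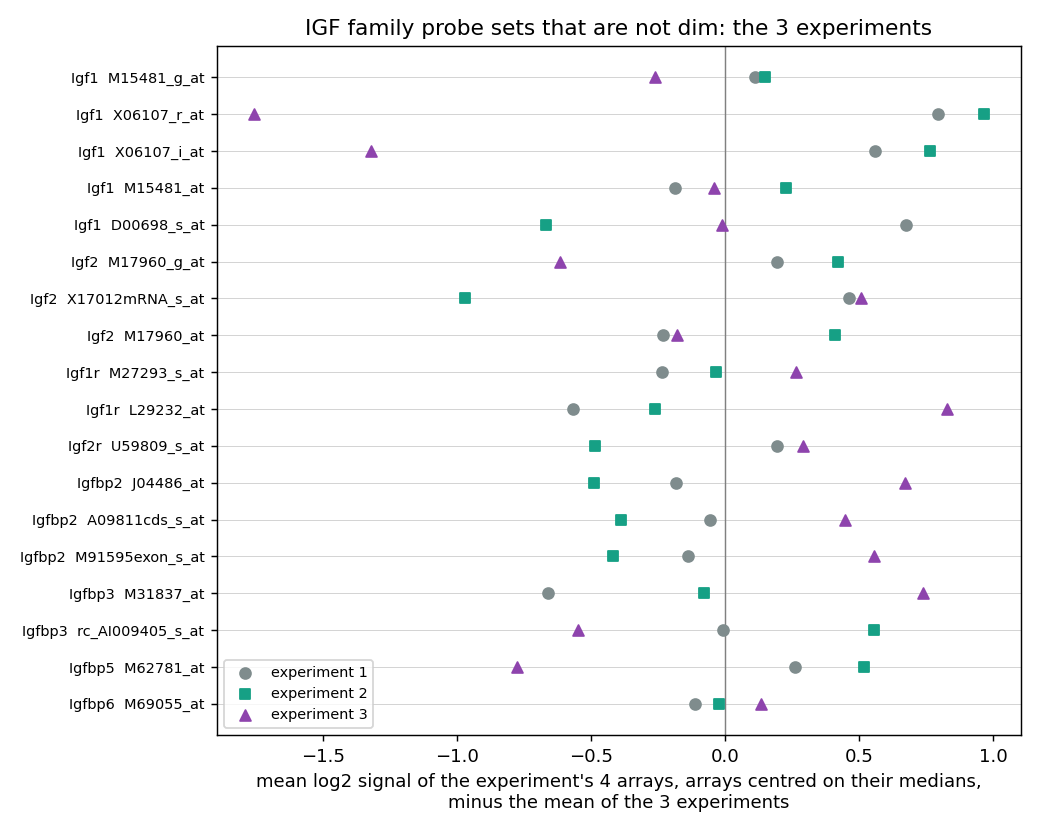
Mean log2 signal of the 4 arrays of each experiment, with arrays centred on their medians, minus the mean of the 3 experiments, for the 18 probe sets that were not dim. Experiment 3 is far left at Igf1 X06107_r_at and X06107_i_at and right at all 3 Igfbp2 probe sets and at Igfbp3 M31837_at.

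Other genes of the pathway were read from 4 lists of 70 genes in all, of which 51 were measured and 48 were not dim, each by its brightest probe set. Limma called 2 of the 51 in M/M cultures, both higher, and 0 in Th1 or Th2 cultures, and 0.263% of all probe sets were called in M/M. At an unadjusted p under 0.05 it marked 5 of the 51 in Th1, 13 in M/M and 7 in Th2 cultures, beside 5.56%, 15.9% and 6.75% of all probe sets. With centring limma called 0 of all probe sets in each mixture. The median log2 difference of the 51 was 0.11 in Th1, 0.42 in M/M and 0.21 in Th2 cultures as deposited, and with centring -0.05, -0.01 and 0.00. The 4 lists together thus lay within 0.10 of the medians of all probe sets.

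Both called genes were among 8 known targets and regulators, whose median log2 difference was 0.64 in Th1, 1.02 in M/M and 0.65 in Th2 cultures (with centring 0.48, 0.60 and 0.44). At an unadjusted p under 0.05 limma marked 2, 4 and 4 of the 8 in the same mixtures. Cebpb, a transcription factor of the acute phase, had 647, 399.96 and 743 in M/M cultures, against 191, 52.9 and 146 in control cultures, and rose by 2.34 on the log2 scale (limma, adjusted p = 0.0385, with centring 0.126). Egr1, an immediate early transcription factor that growth factors induce, had 2521, 944 and 1073 in M/M cultures, against 942, 402 and 478 in control cultures, and rose by 1.27 (adjusted p = 0.0251, with centring 0.253). The groups did not overlap for either gene, as was so for 7.99% of all probe sets in M/M cultures, either direction. For Egr1 the lowest M/M array (944) and the highest control array (942) were close. The rises were not particular to M/M cultures. In Th1 and Th2 cultures the mean log2 differences were 1.77 and 1.40 for Cebpb, and 0.87 and 0.92 for Egr1. Among 11 relatives of the binding proteins, proteases and clearance factors limma called 0 with any mixture (2, 3 and 3 at an unadjusted p under 0.05 in Th1, M/M and Th2 cultures), and 11 of the 11 had a mean above control in M/M cultures as deposited, as did 78.1% of all probe sets, while their median log2 difference there was -0.01 with centring. Mmp3, a matrix protease known to cleave binding proteins, had 972, 109 and 128 in M/M cultures, against 11.2, 14.3 and 11.7 in control cultures (log2 difference 4.27, adjusted p = 0.128), and Mmp9 had 378, 100.2 and 273, against 98.2, 7.48 and 52.0 (log2 difference 2.69, adjusted p = 0.113). Plat, the tissue plasminogen activator, had a log2 difference of 1.42 in M/M cultures (adjusted p = 0.167). In Th1 and Th2 cultures the differences were 1.88 and 2.36 for Mmp3, 1.66 and 1.72 for Mmp9, and 1.18 and 1.04 for Plat. The Th2 array of experiment 3 had 595.5 for Mmp3 and 600.9 for Mmp9. Among 9 insulin and growth hormone ligands and receptors 0 were called with any mixture (0, 1 and 0 at an unadjusted p under 0.05), and the lowest adjusted p was 0.244, for Sst in M/M cultures. Among 23 intracellular signalling genes 0 were called (1, 5 and 0 at an unadjusted p under 0.05), with Ptpn1, a phosphatase that acts on insulin receptors, at the lowest adjusted p (0.179 in M/M cultures). Beside the unadjusted counts of these lists stand shares of 5.56% of all probe sets in Th1, 15.9% in M/M and 6.75% in Th2 cultures.

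For the 3 members with the brightest probe sets the most similar genes were sought among 5378 probe sets that were not dim, by the correlation over 12 arrays after centring and removal of the mean of each experiment. Igf1 M15481_g_at was most like Mcm6 (r = 0.96), Lpl (0.95), Rxrg (0.94), Lipa (0.93) and Gas6 (0.92), beside a median r of 0.17 over all candidates. Igfbp2 J04486_at was most like Crybb2 (0.94), Prim2, Gfra2 (0.92 each), Ccnd2 (0.90) and Tpm2 (0.89), beside a median of 0.07. Igfbp3 M31837_at was most like Ankra2 (0.85), Gpr161 (0.81), Arc, Nppc and Pdk2 (0.80 each), beside a median of 0.00. No gene was among the 5 nearest of more than 1 member. With 12 arrays and 5378 candidates such values are a description only.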

How the data were processed

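RNA of 12 cultures of mixed CNS glia was measured on Affymetrix rat arrays in 4 groups and 3 experiments, grouped by the sample labels. The authors calculated the deposited intensity of each probe set with dChip, on a linear scale, and a normalization between arrays is not stated in the sources used here. Signals below 0.1 were set to 0.1 before log2, no scaling was applied, and 59 control probe sets were left out of 8799. Probe sets were named by the platform annotation, with 1 symbol for 7006, several for 308 and none for 1426, and 24 of the family had 1 symbol.

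Differences were taken within experiments, which the title codes and the methods mark as shared, and arrays of the same experiment deviated together (18 correlations of 0.44 to 0.71, against at most 0.36 in 36 pairs that differed in both experiment and group). All probe sets were fitted with limma 3.58.1 (R 4.3.3, 4 groups, experiment as a block, variance trend, 6 residual degrees of freedom), with p values adjusted by Benjamini-Hochberg over 8740. The fit was also run on simulated data with independent noise at each probe set and shifts in the Th1 group alone. Those data held no difference in brightness of single arrays such as is seen here, and nothing is read from that run. P values of the limma fit to the real data rest on the spread left after group and experiment, pooled over the 4 groups and moderated across probe sets. They do not measure the whole spread between the 3 cultures of a group. All member probe sets were named, with values for each array unless dim, together with genes of 4 pathway lists and the genes most similar to 3 members. The members, lists and rules were chosen with earlier results of these data known. The alternatives were no block, a random block, centring, quantile normalization, a floor at 1, an offset of 16, no dim probe sets, no variance trend, the screening criteria of the methods, and arrays or experiments left out. Marker lists of oligodendrocyte precursors (3 genes measured, summed signal 530.4 to 1978), microglia (8 genes, 2359 to 9022) and neurons (6 genes, 350.3 to 671.6) were also read.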

Additional observations from a re-analysis of the deposited data

How the results depend on the processing

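Without the replicate block, which was limma with the groups alone, 0 of the 24 family probe sets were called against control with each mixture and between mixtures, as with the block. That fit called 0 of all 8740 probe sets in each of these comparisons, as did the fits with centring, quantile normalization or no variance trend. In those fits the family count could only be 0. The other limma alternatives also called 0 of the family, although some called probe sets outside it. Against control these were 183 in M/M cultures without the Th1 array of experiment 3, and 58 in Th1 cultures without experiment 3. The screening criteria of the methods, in the form applied here, took 2 with M/M and 1 with Th2 cytokines. The number that differed between experiments ran from 1, without experiment 3 (512 of all 8740), to 13, without the M/M array of experiment 1 (4929 of all), when single arrays or experiments were left out. The family median log2 difference for M/M cytokines was 0.20 as deposited, -0.23 with centring and -0.15 with quantile normalization, and for Th2 cytokines it was 0.02, -0.19 and -0.19, and the cause beyond the change of scale was not tested. With arrays or experiments left out the lowest and highest medians were -0.45 and 0.032 for Th1, where the lowest value came without experiment 2, 0.028 and 0.36 for M/M, and -0.065 and 0.062 for Th2 cytokines. Of 1134 member values compared 16 moved by more than the SD between experiments, 8 with centring, 4 with quantile normalization and 4 with the offset of 16. Leaving out 1 of 3 experiments, or an array, cannot shift a mean of 3 differences by a full SD. A change of block or the removal of dim probe sets leaves the differences as they were, so none of these comparisons could move. The sign differed from that as deposited in 17 of 72 with centring and 16 of 72 with quantile normalization. The 6 dim probe sets carry little signal, and with 3 arrays a group small differences were not detectable.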
